A study of Mus musculus with 12 samples.

Results

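The genes described here were 10 enzymes of phosphatidylcholine and phosphatidylethanolamine synthesis, chosen by name from 53465 genes of a liver count table: the choline and ethanolamine kinases Chka, Chkb, Etnk1 and Etnk2, the cytidylyl transferases Pcyt1a and Pcyt2, the final transferase Cept1, the methyltransferase Pemt, and the lipins Lpin1 and Lpin2. They were picked with earlier results of these 12 livers known, so their levels, fold changes and calls are given as a description and no p-value is attached to them. Steady-state RNA was sequenced from the livers of C57BL/6N mice, an inbred laboratory strain, with 1 library per animal. The groups were young mice of 3 months (n = 4), middle-aged mice of 12 months (n = 4) and aged mice of 18 months (n = 4), and the labels name no treatment or transgene in any of them. The study asked how transcription in the liver changes with age. The extraction protocol in the labels speaks of young and old livers and does not mention the middle-aged ones, so how that group was prepared relative to the others is uncertain. The labels give each library to a different animal, 4 to an age, whereas the series' design text counts 3 replicates for each age and the study's text credits liver RNA-seq at 3 ages to a public ageing atlas, so the origin of the 12 animals is uncertain too.

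In the Kennedy pathway, choline or ethanolamine is taken up and phosphorylated by a kinase, coupled to CTP by a cytidylyl transferase, and joined to diacylglycerol by a transferase of the endoplasmic reticulum. Lipins supply that diacylglycerol by removing the phosphate from phosphatidic acid. The liver has an additional route, in which Pemt methylates phosphatidylethanolamine to phosphatidylcholine, and it uses the product for membranes, bile and lipoproteins. In these livers Chka was lowest and Pcyt1a highest at 12 months, Etnk2, Lpin1 and Lpin2 were lowest at 18 months, and Chkb, Etnk1, Pcyt2, Cept1 and Pemt were not called in any pair of ages.

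All 10 genes had at least 10 counts in each of the 12 libraries, so none was lost to a filter on low values. Values below are normalised read counts, that is raw counts divided by the DESeq2 size factor of the library, and a gene is called changed where the DESeq2 Wald test gave a Benjamini-Hochberg adjusted p under 0.05 over all genes tested. By this rule 3.58% of all genes were called in aged against young, 6.41% in middle-aged against young and 1.14% in aged against middle-aged livers. Libraries held 8124312 to 10527159 gene counts. Markers of hepatocytes were the bulk of the marker signal, with 7 listed genes summing to between 767000 and 1050000 normalised counts per library. None of these 7, nor any listed marker of Kupffer cells, endothelium, stellate cells, lymphocytes, adipocytes, skeletal muscle or exocrine pancreas, was called in any comparison of ages, while 1 of 5 cholangiocyte markers, Sox9, was called in aged against young and in aged against middle-aged livers. The 4 skeletal muscle markers summed to 365 in the third young library and 479 in the third middle-aged library, and to between 7.15 and 30.8 in the other 10. The 4 adipocyte markers summed to 285 in the third middle-aged, 177 in the third aged and 60.8 in the fourth aged library, and to 43.1 or less in the other 9. The second young library had 19.16% of its gene counts on mitochondrial genes against 5.481% to 10.68% elsewhere. The counts of 31 synthetic spike-in RNAs correlated at 0.997 or above among replicates 1 and 2 of all ages, and likewise among replicates 3 and 4, and at 0.925 or below between these sets, so values within each of these sets are given beside the results they bear on. Being bulk tissue, fewer cells of a type and less RNA per cell cannot be told apart in these data.

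The promoters of the 5 genes that were called in at least 1 pair of ages are shown because these genes carry the differences between ages. Each is the 250 bases before the first RefSeq start of the gene, 5′ to 3′ on the strand of the gene in GRCm38.p6, with matches to the motifs listed after them in capitals.
Chka, chr19:3851523-3851772, plus strand: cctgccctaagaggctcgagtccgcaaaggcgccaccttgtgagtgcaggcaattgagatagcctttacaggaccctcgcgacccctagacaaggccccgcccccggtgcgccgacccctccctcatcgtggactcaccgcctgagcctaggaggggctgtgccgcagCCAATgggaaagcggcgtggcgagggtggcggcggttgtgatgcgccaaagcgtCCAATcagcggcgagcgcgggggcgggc
Etnk2, chr1:133363322-133363571, plus strand: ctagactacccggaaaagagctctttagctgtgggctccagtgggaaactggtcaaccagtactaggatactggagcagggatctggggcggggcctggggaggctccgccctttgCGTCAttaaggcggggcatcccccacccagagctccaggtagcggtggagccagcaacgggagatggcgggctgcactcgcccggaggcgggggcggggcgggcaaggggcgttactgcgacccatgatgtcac
Pcyt1a, chr16:32430671-32430920, plus strand: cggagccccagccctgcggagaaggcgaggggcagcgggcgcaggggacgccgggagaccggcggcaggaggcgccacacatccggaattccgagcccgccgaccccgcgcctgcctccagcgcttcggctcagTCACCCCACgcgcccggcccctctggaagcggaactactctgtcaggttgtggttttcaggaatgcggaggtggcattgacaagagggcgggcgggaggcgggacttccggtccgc
Lpin1, chr12:16610967-16611216, minus strand: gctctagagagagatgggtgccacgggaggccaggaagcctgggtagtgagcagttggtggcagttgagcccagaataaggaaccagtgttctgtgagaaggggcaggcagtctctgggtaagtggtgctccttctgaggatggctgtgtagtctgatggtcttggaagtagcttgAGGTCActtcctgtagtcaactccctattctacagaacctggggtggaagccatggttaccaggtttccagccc
Lpin2, chr17:71183282-71183531, plus strand: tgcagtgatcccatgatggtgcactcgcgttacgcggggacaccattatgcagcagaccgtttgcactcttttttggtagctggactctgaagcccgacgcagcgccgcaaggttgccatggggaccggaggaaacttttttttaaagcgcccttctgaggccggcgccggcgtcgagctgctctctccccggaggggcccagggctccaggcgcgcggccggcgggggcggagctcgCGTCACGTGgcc
Both strands were searched for 8 spellings. The capitals are 2 CCAAT boxes in Chka, 82 and 28 bases before the start, a CRE half-site (TGACG, here on the opposite strand) 134 bases before the start in Etnk2, an SRE (TCACNCCAC) 116 bases before the start in Pcyt1a, and a ROR half-site (AGGTCA) 74 bases before the start in Lpin1. In Lpin2 they are an E-box (CACGTG) 9 bases before the start and a CRE half-site on the opposite strand that overlaps it.

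RefSeq held 16 promoter windows for 9 of the 10 genes, Pcyt2 being the one without an entry, and some windows of the same gene overlap. The E-box stood in 1 of these 16 windows and in 6.02% of all 32851 windows of the same length, and the ROR half-site in 1 and in 14%. The CRE half-site stood in 4 (Etnk1, Etnk2, Lpin2 and Pcyt1a) and in 17.8% of all, and CCAAT in 4 (Chka, Chkb, Lpin2 and Pemt) and in 33.8%. The SRE stood in 2 overlapping windows, both of Pcyt1a, and in 1.05% of all, and the forkhead motif TGTTTAC in 1 window of Lpin2 and in 3.17%. Neither D-box spelling, TTATGTAA (0.819% of all windows) or TTACGTAA (0.113%), was found in the 16. GC content ran from 27.6% to 83.2% over the 16 windows, with a median of 64.6% against 52.4% for all windows.

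Chka encodes choline kinase alpha, which takes the first step toward phosphatidylcholine, and its gene lies on chromosome 19 (3851773 to 3894369, plus strand; ENSMUSG00000024843). The 4 young livers had 274.9, 319.7, 372.1 and 363.2 normalised counts, the middle-aged livers 187.7, 191.2, 211.0 and 169.4, and the aged livers 355.3, 371.8, 499.0 and 460.4. Every middle-aged liver was thus below every liver of the other ages, while the young and aged livers overlapped. Chka fell 1.75-fold between young and middle-aged livers (log2 change -0.81 ± 0.15, SE) and stood 2.22-fold above the middle-aged level in aged livers (1.15 ± 0.15), and both differences were called. Aged against young livers gave 0.34 ± 0.14, which was not called. The call against middle-aged livers was made in 22 of 22 alternative settings for the aged and in 21 of 22 for the young.

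Chkb, the second choline kinase gene, was not called in any pair of ages, and its means were 199.7 ± 14.7 (SD, n = 4) in young livers, 184.1 ± 11.1 in middle-aged and 222.7 ± 14.8 in aged livers. Its middle-aged and aged groups did not overlap, and the 95% interval of the aged against middle-aged log2 change was 0.06 to 0.49. Of the counts on both choline kinase genes, Chka took 62.3% ± 3.75 (SD, n = 4) in young livers, 50.7% ± 2.36 in middle-aged and 65.2% ± 2.77 in aged livers. Shares in middle-aged livers ended at 53.8%, below the lowest share of 58.5% in young livers. These are shares of read counts and not of molecules, since the Chka exons span 12024 bases and the Chkb exons 3061. Per kilobase of exon, over all annotated exons of each gene, the order was the opposite. Young means were 27.6 normalised counts per kb for Chka and 65.3 for Chkb. The Chkb values are uncertain because 50.7% of its exonic bases are shared with Gm44502, an annotated gene on the same strand. Gm44502 had no counts in any of the 3 groups, and whether it was counted at 0 or left out of the counting was not checked. If it was counted, shared reads may have been assigned or dropped either way.

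**Figure D1:**
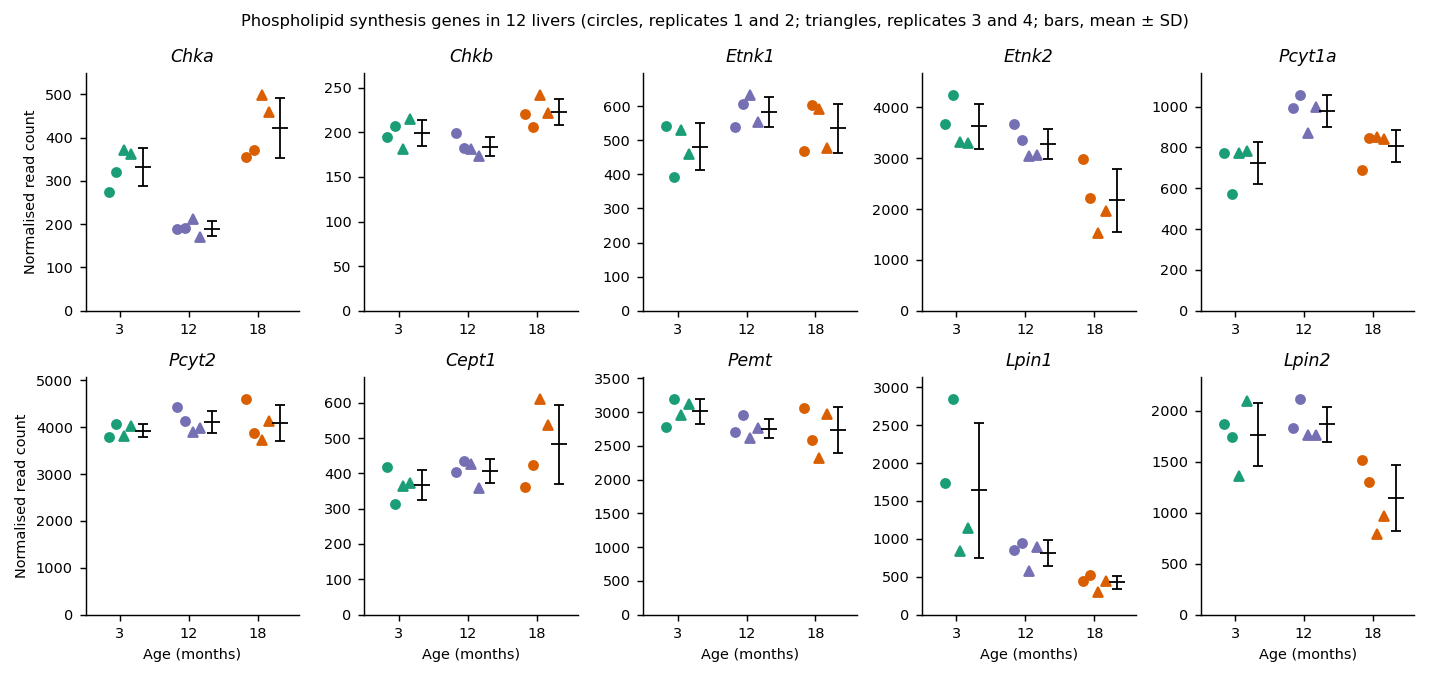
Normalised read counts (y axes, linear and starting at 0) of the 10 genes in each liver at 3, 12 and 18 months; circles are replicates 1 and 2, triangles replicates 3 and 4, and bars the mean ± SD of 4 livers. The middle-aged Chka values, 169.4 to 211.0, lie below all others, and Lpin1 spans 836.5 to 2852 in young livers against 297.1 to 517.3 in aged ones.

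The ethanolamine kinases begin the branch that leads to phosphatidylethanolamine. Etnk2 (chromosome 1, 133363572 to 133380336, plus strand; ENSMUSG00000070644), the ethanolamine kinase that is abundant in liver, had 3666, 4247, 3314 and 3296 normalised counts in young livers, 3669, 3353, 3046 and 3069 in middle-aged, and 2977, 2212, 1521 and 1964 in aged livers. All 4 aged livers were below all livers of the other ages, and the young and middle-aged livers overlapped. Etnk2 fell by 0.74 ± 0.17 (log2, SE) from young to aged livers and by 0.60 ± 0.17 from middle-aged to aged livers, both called, the second in only 10 of 22 alternative settings. Middle-aged against young livers gave -0.14 ± 0.17 and no call. Etnk1, the other ethanolamine kinase, was at 481.3 ± 69.7 (SD, n = 4), 583.1 ± 44.2 and 535.2 ± 71.9 in young, middle-aged and aged livers and was not called in any pair.

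The cytidylyl transferases follow the kinases. Pcyt1a, which makes CDP-choline and is regarded as the regulated step of the choline branch (chromosome 16, 32430921 to 32475070, plus strand; ENSMUSG00000005615), had 770.6, 570.6, 773.7 and 783.9 normalised counts in young livers, 994.9, 1058, 871.5 and 996.2 in middle-aged, and 689.5, 845.7, 851.2 and 843.0 in aged livers. The middle-aged livers were the highest and overlapped neither other age. Pcyt1a rose 1.35-fold from young to middle-aged livers (0.43 ± 0.12, log2 and SE). This was called in 17 of 22 alternative settings. It was not called without the second middle-aged replicate, with the replicate number as a block, or by edgeR after its filter. Nor was it called within either spike-in set, at 0.61 within replicates 1 and 2 and 0.25 within replicates 3 and 4. The aged against middle-aged difference, -0.28 ± 0.12, was not called. Without the second young liver, the one high in mitochondrial counts, the middle-aged against young value was 0.34 and still called. Of the Pcyt1a exonic bases, 7.65% are overlapped on the opposite strand by Slc51a. That gene had no counts in any group, and whether it was counted at 0 or left out of the counting was not checked. Pcyt2, the ethanolamine counterpart, was not called, at 3925 ± 143 (SD, n = 4), 4112 ± 237 and 4085 ± 389, and the 95% intervals of its log2 changes lay between -0.16 and 0.22.

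Downstream of these, Cept1 joins CDP-choline or CDP-ethanolamine to diacylglycerol. It had 418.2, 314.6, 363.8 and 372.0 normalised counts in young livers, 404.1, 434.5, 427.4 and 358.8 in middle-aged, and 361.3, 422.9, 611.7 and 536.3 in aged livers, and no difference was called. The aged group was split along the spike-in sets: aged against young livers gave a log2 change of 0.10 within replicates 1 and 2 and of 0.64, called, within replicates 3 and 4. Cept1 is also uncertain in level, as 24.7% of its exonic bases are covered on the other strand by Dennd2d, whose means were 69.0 to 83.6 normalised counts, and the strand setting of the counting is not given in the sources used here. Pemt was at 3013 ± 188 (SD, n = 4), 2758 ± 144 and 2739 ± 344 in young, middle-aged and aged livers. Its 3 log2 changes lay within 95% intervals from -0.32 to 0.18, and none was called.

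The lipins were lower in aged livers. Lpin1, a phosphatidic acid phosphatase that also acts as a transcriptional coactivator (chromosome 12, 16535669 to 16610966, minus strand; ENSMUSG00000020593), had 1739, 2852, 836.5 and 1138 normalised counts in young livers, 846.9, 948.1, 568.7 and 892.0 in middle-aged, and 440.6, 517.3, 297.1 and 439.8 in aged livers. The aged livers were below all others, and the lowest young liver was below 3 of the 4 middle-aged ones. Lpin1 fell 3.87-fold from young to aged livers (-1.95 ± 0.36, log2 and SE), the largest change among the 10 genes, and this was called in 22 of 22 alternative settings. The steps from young to middle-aged (-1.01 ± 0.36) and from middle-aged to aged livers (-0.94 ± 0.36) were not called, but alternatives called the first in 6 of 22 settings and the second in 8 of 22, including within each spike-in set. Without the second young liver, which had the highest Lpin1 count, the aged against young value was -1.55 and still called. Lpin1 is also abundant in skeletal muscle, and the libraries with the highest muscle marker sums, the third young and the third middle-aged one, had 836.5 and 568.7 Lpin1 counts. The part of muscle RNA in the Lpin1 values was not tested.

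Lpin2 (chromosome 17, 71182560 to 71249817, plus strand; ENSMUSG00000024052), a lipin prominent in liver, had 1866, 1744, 1358 and 2098 normalised counts in young livers, 1827, 2119, 1766 and 1759 in middle-aged, and 1518, 1300, 793.5 and 967.2 in aged livers. The aged livers lay below all middle-aged ones and overlapped the young range, the first aged liver being above the third young one. Lpin2 fell by 0.71 ± 0.19 (log2, SE) from middle-aged to aged livers and by 0.63 ± 0.19 from young to aged livers, and these were called in 14 and 13 of 22 alternative settings. Unlike Lpin1, its middle-aged against young value was near 0, at 0.08 ± 0.19; whether the lipins differed in this step was not tested.

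**Figure D2:**
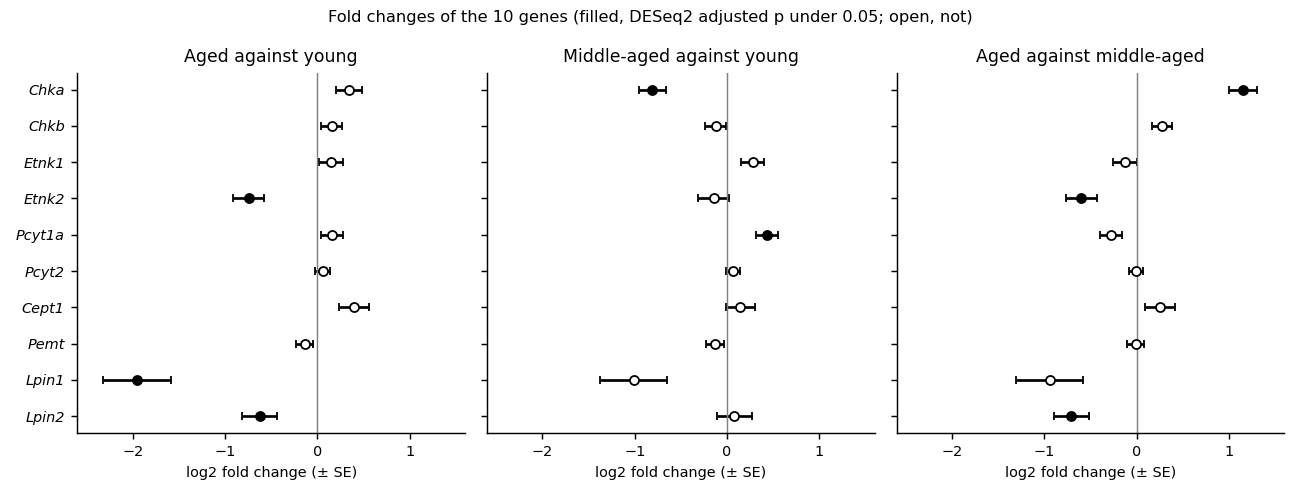
DESeq2 log2 fold changes (x axes) ± SE of the 10 genes (rows) for the 3 pairs of ages; filled points passed an adjusted p of 0.05 over all genes tested and open points did not. Chka lies at -0.81 in middle-aged against young and at 1.15 in aged against middle-aged livers, and Lpin1 at -1.95 in aged against young livers.

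Counted over the list, 3 of the 10 genes were called between aged and young livers, all of them lower (Etnk2, Lpin1 and Lpin2), where 3.58% of all 13527 genes tested were called, 1.87% higher and 1.71% lower. Between middle-aged and young livers 2 were called, Pcyt1a higher and Chka lower, against 6.41% of all genes, 3.51% higher and 2.9% lower. Between aged and middle-aged livers 3 were called, Chka higher and Etnk2 and Lpin2 lower, against 1.14% of all genes, 0.537% higher and 0.606% lower. A likelihood ratio test over the 3 ages called 5 of the 10 and 6.96% of all genes. The groups did not overlap for 2, 2 and 6 of the 10 in these 3 pairs, where 7.9%, 15.6% and 6.16% of the 11804 genes averaging 10 counts or more did not. Since the genes were picked with results of these comparisons known, nothing is read from these shares. The median log2 change over the 10 genes was 0.11, -0.03 and -0.07, beside 0.00, 0.01 and 0.01 over all genes tested. Over genes averaging 10 counts or more, scaling by total counts instead of size factors moved the median log2 change from 0.01 to 0.12. This held in aged and in middle-aged against young livers, where 648 genes were then called higher and 139 lower, and 841 higher and 159 lower. The change of scaling turned no called direction among the 10.

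Genes were set beside each other per kilobase of exon, over all annotated exons of a gene. Expressed transcripts may be shorter than this, so the order depends on that choice. The mean level in young livers was highest for Pemt (1430 normalised counts per kb), followed by Pcyt2 (903) and Etnk2 (795). Lpin1 (170), Lpin2 (144), Cept1 (118) and Pcyt1a (97.8) came next, then Chkb (65.3), Etnk1 (34.0) and Chka (27.6). Neighbours whose ranges overlapped over the young livers were Pcyt2 and Etnk2, Lpin1 and Lpin2, Lpin2 and Cept1, Cept1 and Pcyt1a, and Etnk1 and Chka. In aged livers Lpin1 stood at 43.8 per kb, near Etnk1 (37.8) and Chka (35.1).

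In 6 of the 10 genes the aged livers of replicates 3 and 4 did not overlap those of replicates 1 and 2. How many of all genes split in this way was not counted, so nothing is read from this number. Replicates 3 and 4 had the highest Chka, Chkb and Cept1 and the lowest Etnk2, Lpin1 and Lpin2 counts of their age. For Lpin1 the gap was small, with 439.8 in the fourth and 440.6 in the first aged liver. Replicates 3 and 4 were also the aged libraries with the highest adipocyte marker sums, whose part in these values was not tested. Within replicates 1 and 2, aged against young livers gave log2 changes of -0.61 for Etnk2 and -0.35 for Lpin2, and within replicates 3 and 4 of -0.93 and -0.98. Only the second pair of values was called. Chka in aged against middle-aged livers was called within both sets, at 0.94 and 1.34, and so was Lpin1 in aged against young livers, at -2.26 and -1.43. Middle-aged against young Chka was -0.65 within replicates 1 and 2, not called, and -0.96 within replicates 3 and 4, called. The part of the spike-in set in these values was not tested beyond this split and a fit with the set as a covariate, under which Etnk2, Lpin1 and Lpin2 were again called in aged against young livers, Chka again was not, and Lpin1 was called in both other pairs as well.

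The search for genes with a like pattern covered 8887 others whose mean over all livers was 50 normalised counts or more. The 3 whose log2 counts were most alike those of Chka over the 12 livers were Clpx (Pearson r = 0.93, Spearman rho = 0.94), a mitochondrial unfoldase, Nfil3 (0.92 and 0.85), a repressor of circadian output genes, and Sfpq (0.92 and 0.92), a nuclear RNA-binding protein. All 3 had their lowest mean in middle-aged and their highest in aged livers, as Chka did: Nfil3 was at 329.2, 163.2 and 471.4 normalised counts in young, middle-aged and aged livers. By Pearson r, those most alike Etnk2 were Maf1, Lancl1 and Mcm10 (0.95, 0.93 and 0.92), for Pcyt1a Ptgr2 and Dennd5b (0.96 and 0.94), for Lpin1 Snrpd2, Sec13 and Coq10b (0.92, 0.91 and 0.90), and for Lpin2 Micu2, Mknk2 and Maf1 (0.95, 0.93 and 0.92). Dennd5b had means of 456.9, 675.1 and 509.1, highest in middle-aged livers like Pcyt1a. These are the extremes of a ranking over all genes in samples that share 3 ages and 2 spike-in sets, and without the 2 livers farthest from the median they ranged from 0.68 to 0.96.

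**Figure D3:**
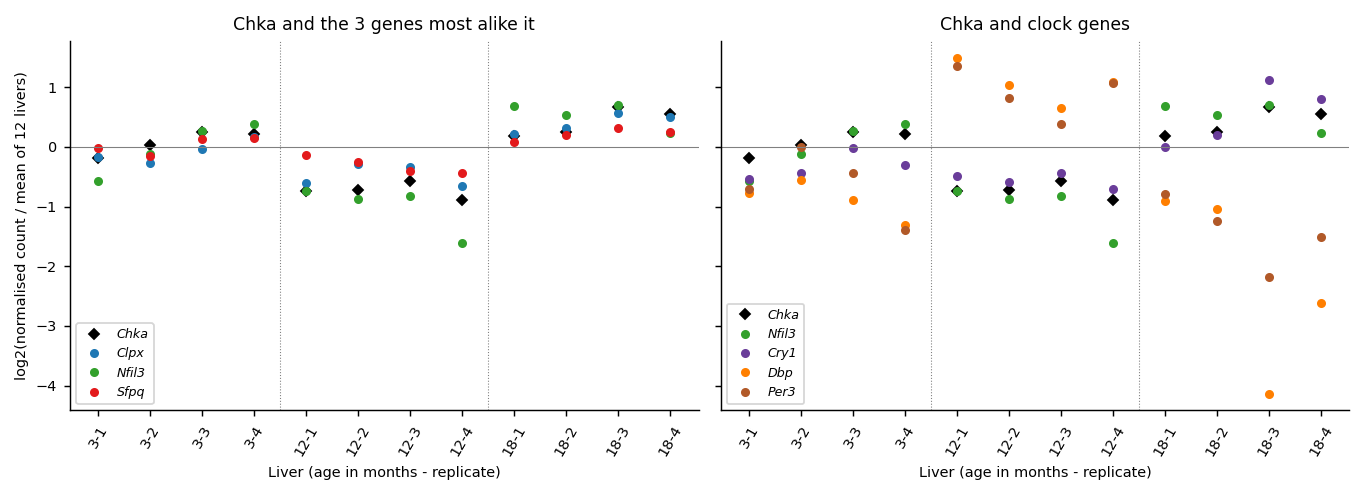
log2 of the normalised count over the mean of the 12 livers (y axis) for each liver (x axis, age in months and replicate) for Chka with Clpx, Nfil3 and Sfpq on the left, and with the clock genes Nfil3, Cry1, Dbp and Per3 on the right. In middle-aged livers Chka and Nfil3 are below the mean while Dbp and Per3 are above it.

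Clock genes moved between the same ages as Chka. Of 17 listed core clock and clock output genes, 1 was called higher in aged against young livers, 5 higher and 1 lower in middle-aged against young livers, and 3 higher and 6 lower in aged against middle-aged livers, with 11 called over the 3 ages. edgeR called 7, 9 and 12 of them without a filter and 0, 4 and 5 after its own filter on low counts. Nfil3 was called in the same comparisons and directions as Chka, with log2 changes of -1.01 ± 0.22 (SE; adjusted p = 0.000691) in middle-aged against young and 1.53 ± 0.22 (adjusted p = 1.65e-08) in aged against middle-aged livers. Cry1, a repressor of the clock, exceeded its middle-aged level in aged livers by a log2 difference of 1.15 ± 0.26 (adjusted p = 0.00261). Dbp, a circadian output factor, went the other way, from 688.9 normalised counts in middle-aged to 100.2 in aged livers (log2 change -2.78 ± 0.56, adjusted p = 0.000355), as did Per3 (-2.31 ± 0.36, adjusted p = 1.78e-07). Within the aged group, replicates 3 and 4 had the lowest Dbp counts, 18.35 and 52.74 against 172.6 and 157.0, and these are the livers with the highest Chka counts. Cry1 was highest and Per3 lowest in the same livers. Nfil3 did not split this way, with 517.8, 467.2, 521.7 and 379.0 in aged replicates 1 to 4. The labels give no hour of collection, and the part of the clock in the Chka values was not tested.

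Genes of fasting and PPAR alpha, the nuclear receptor that drives fat oxidation, were called higher in aged than in young livers in 6 of 13 cases, among them Cyp4a14 (log2 change 6.17 ± 1.26, SE; adjusted p = 0.00022) and Cyp4a10 (3.28 ± 0.75, adjusted p = 0.00155). Cyp4a14 had 20.07, 112.7, 3452 and 1204 normalised counts in the aged livers and 1.274 to 33.97 in the young, so the first aged liver lay within the young range, and the change was 1.91, not called, within replicates 1 and 2 and 7.22, called, within replicates 3 and 4. For Cyp4a10 these were 2.07, not called, and 3.71, called. Fgf21, a fasting hormone also called, had 9.032 to 33.21 normalised counts in aged livers and 1.185 or fewer in young ones. edgeR called 11 of the 13 without a filter, 10 higher and 1 lower, and 4 with it, all higher. In middle-aged against young livers 2 were called, both higher, among them Ppara itself (0.76 ± 0.25, adjusted p = 0.0393), where edgeR called 8 without a filter, 7 of them higher, and 0 with it. None was called in aged against middle-aged livers by DESeq2, where edgeR called 5 without a filter and 0 with it. An unadjusted p under 0.05 was found there for 6 of the 13, and for 1225 of all 28449 genes. Of 12 SREBP targets of sterol and fatty acid synthesis, 1 was called lower in aged against young livers, 2 were called higher in middle-aged against young livers, and 2 were called lower in aged against middle-aged livers, among them Insig1 (-0.44 ± 0.13, adjusted p = 0.0444). edgeR called 6, 6 and 4 of them in these pairs without a filter, of which 5, 6 and 1 were higher, and 0, 1 and 0 with it. Srebf1, which encodes the factor itself, had a log2 change of 0.81 ± 0.20 (adjusted p = 0.00382) in middle-aged against young livers, the comparison in which Pcyt1a was also called higher. The feeding state at collection is not given in the labels, and its part in the values of the phospholipid genes was not tested.

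Of 66 other genes of the pathway, 59 were tested in aged against young livers and 1 was called, 54 in middle-aged against young with 4 called, and 50 in aged against middle-aged with 1 called. These are 1.69%, 7.41% and 2.0% of the tested genes, where 3.58%, 6.41% and 1.14% of all genes were called. Their median log2 changes were 0.08, 0.08 and 0.02, beside 0.00, 0.01 and 0.01 for all genes. Over all 66, including those without an adjusted p, 15, 20 and 4 had an unadjusted p under 0.05. Over all 28449 genes with a count, 2252, 2645 and 1225 did. Gpcpd1, which breaks down glycerophosphocholine and so returns choline, fell from 821.5 ± 255 (SD, n = 4) normalised counts in young to 441.3 ± 69.2 in aged livers (log2 change -0.90 ± 0.19, SE; adjusted p = 0.000548). Its young livers had 1170, 853.3, 635.1 and 627.7 and its aged livers 417.5, 506.7, 354.8 and 486.3, with no overlap. It fell from middle-aged to aged livers as well (-0.69 ± 0.19, adjusted p = 0.0382), a call that TMM scaling and the omission of any middle-aged liver each ended.

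In middle-aged against young livers, Cds2, which makes CDP-diacylglycerol for phosphatidylinositol and cardiolipin, rose by a log2 change of 0.40 ± 0.09 (SE; adjusted p = 0.00101), and Lpcat3, which puts polyunsaturated acyl chains into lysophospholipids, by 0.50 ± 0.14 (adjusted p = 0.0132). Their young ranges of 641.4 to 789.1 and 368.1 to 600.8 lay below their middle-aged ranges of 888.3 to 1047 and 636.4 to 689.1. The phospholipases Pnpla8 (0.25 ± 0.08, adjusted p = 0.0498) and Pnpla7 (-0.30 ± 0.09, adjusted p = 0.0167) were called in opposite directions. edgeR called neither phospholipase in this comparison, with or without a filter. Pnpla8 was also not called with the replicate number as a block or with the spike-in set as a covariate. Within either spike-in set, none of Cds2, Lpcat3, Pnpla7 and Pnpla8 was called in this comparison. By step of the pathway, the 14 genes from glycerol to diacylglycerol, the 8 other CDP-alcohol and phosphatidylserine enzymes, the 8 genes of choline uptake and oxidation and the 7 phospholipid carriers had no call in any pair by DESeq2. At an unadjusted p under 0.05 they had 3, 1, 2 and 2 genes in aged against young livers, beside 2252 of all 28449 genes. In middle-aged against young livers they had 5, 1, 3 and 4, beside 2645, and in aged against middle-aged livers 1, 0, 0 and 0, beside 1225. edgeR without a filter called 7, 8 and 2 of the 66 in the 3 pairs, among them the carriers Pltp and Pctp, the phosphatase Plpp3 and the choline transporter Slc44a1 in both comparisons with young livers, and edgeR after its filter called 1, 1 and 0. The CDP-diacylglycerol branch (8 genes) and the remodelling acyltransferases (7 genes) gave only Cds2 and Lpcat3, and the calls among 14 breakdown genes were Gpcpd1, Pnpla7 and Pnpla8, all by DESeq2 between pairs of ages. Over the 3 ages DESeq2 called the phospholipase family member Pla2g12b as well, and unfiltered edgeR called Pla2g15 in aged against young livers.

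**Figure D4:**
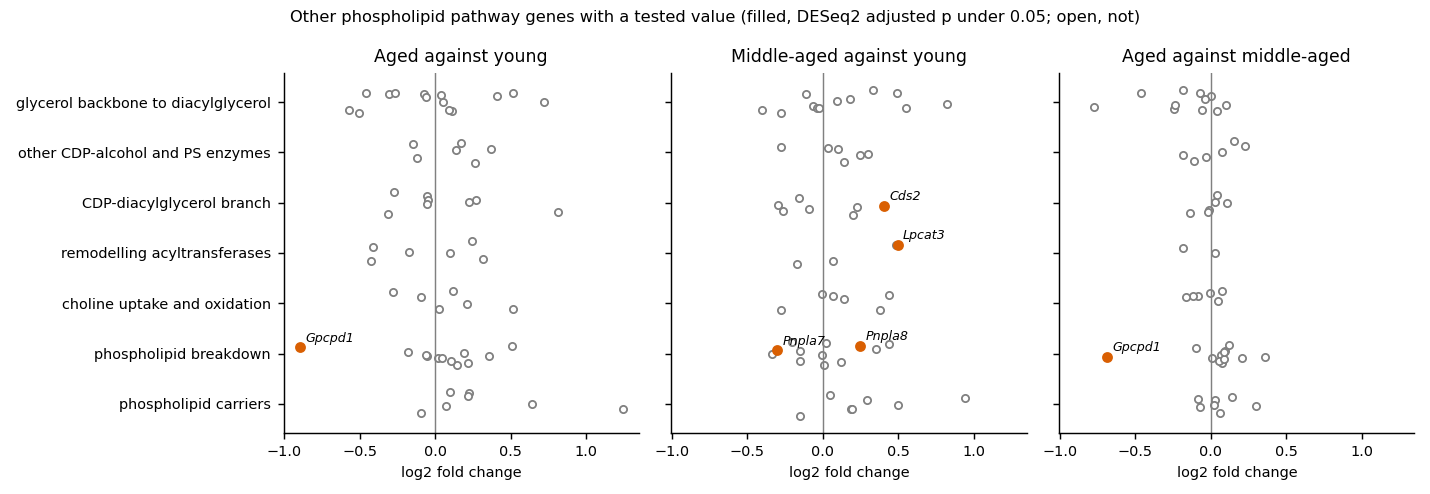
DESeq2 log2 fold changes (x axes) of the other pathway genes with a tested value, by step of the pathway (rows), for the 3 pairs of ages; filled points passed an adjusted p of 0.05 and are named, and vertical scatter within a row has no meaning. The tested genes run from -0.90 (Gpcpd1) to 1.24 (Pltp) in aged against young livers, and 49 of 59 lie within 0.5 of 0.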

How the data were processed

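RNA was sequenced from 12 mouse livers, 4 at each of 3 ages. Per the submitters' processing notes, reads were aligned to mm10/GRCm38 with STAR 2.5.2b and handled with SAMtools 1.9, featureCounts, R 3.6.3, edgeR 3.28.1 and DESeq2 1.26.0. The authors deposited 1 table of raw counts per gene, with 92 spike-in rows that were left out here of library sizes and tests. The label protocols name a directional library kit, and the strand setting of the counting is not given in the sources used here. Column names were matched to the sample titles and their ages. Gene names, positions and exon lengths came from GENCODE M21 on GRCm38, and promoters from RefSeq.

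Counts were compared with DESeq2 1.42.0 in R 4.3.3 (Wald test between pairs of ages and a likelihood ratio test over the 3 ages, all 12 livers in 1 fit, default independent filtering), over 28449 genes with at least 1 count. Per the labels, replicates were separate animals, and the spread between them was above sampling noise (at least 11.2 chi-square units per gene in each pair of libraries). Fold change intervals are Wald 95% intervals. edgeR 4.0.16 with and without filtering, and other scalings, filters, covariates and left-out livers were tried as alternatives. Counts limit precision at the low end, where 3 counts correspond to 0.285 to 0.369 CPM.

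The 10 genes, the other lists and the rule for named genes were chosen with earlier results of these data known. The genes named are the 10, the other pathway genes called in a pair of ages, the 3 genes most alike each called gene by Pearson r of log2(normalised count + 1), and up to 3 called genes of the clock, fasting and SREBP lists per comparison. Sox9, Pla2g12b and the genes called only by edgeR were named after their values were seen. Values of some genes that this rule names are not reported here.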

Additional observations from a re-analysis of the deposited data

Results flagged for a closer look

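Pcyt1a had a single low liver in the young and in the aged group. The second young liver had 570.6 normalised counts while the other 3 had 770.6 to 783.9, and the first aged liver had 689.5 while the other 3 had 843.0 to 851.2. In each case the gap to the nearest liver, relative to the range of the group, was above Dixon's 95% critical value for 4 samples. Over the 10 genes and 3 ages 30 groups were examined, of which chance flags about 1 in 20, or 1.5 groups. Without the second young liver the middle-aged against young log2 change of Pcyt1a was 0.34, and without the first aged liver the aged against middle-aged change was -0.21.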

How the results depend on the processing

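The 30 fold changes of the 10 genes were recomputed under 22 alternatives each, 660 values in all. Of these, 655 stayed within 1 SD of the reported value, 5 moved further (Chkb under total-count scaling and in its aged against middle-aged value within each spike-in set, and Cept1 within replicates 1 and 2) and no called direction turned. The SD is the largest of the 3 within-age SDs of the log2 counts of that gene in single livers. It is not an SD of the fold change and is wide for variable genes. Aged against young Lpin1, all of whose values counted as staying, ran from -2.26 to -1.43. Counts of calls moved more, and in aged against young livers (3 of the 10 genes as reported) within replicates 1 and 2 the count was 1. In middle-aged against young livers (2 as reported) edgeR after filtering, an alternative chosen after seeing the data, called 1, and so did each spike-in set. The gene was Chka with filtered edgeR and within replicates 3 and 4, and Lpin1 within replicates 1 and 2. In aged against middle-aged livers (3 as reported) filtered edgeR called 1, and over the 3 ages (5 as reported) filtered edgeR and replicates 1 and 2 called 2 each. Leaving out 1 liver gave 2 to 5, 1 to 3, 1 to 4 and 4 to 6 calls in these comparisons. The 5 came without the first aged liver, which added Chka and Cept1, and in aged against middle-aged livers Chka alone was called without any 1 of the middle-aged livers, the third aged or the fourth aged liver.

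Of the 66 other pathway genes, 1 was called in aged against young livers. The count was 7 with edgeR, 4 with TMM factors, 6 with total-count factors, 2 with the spike-in set as a covariate and 8 within replicates 3 and 4, and leaving out 1 liver gave 1 to 11, the 11 without the first aged liver. In middle-aged against young livers, 4 as reported, the count was 8 with edgeR, 1 with filtered edgeR, 8 with total-count factors, 9 with only these groups fitted and 1 within replicates 3 and 4, and 1 to 7 with 1 liver left out. In aged against middle-aged livers, 1 as reported, it was 2 with edgeR, 0 with filtered edgeR, with TMM factors and within replicates 1 and 2, and 2 within replicates 3 and 4, and 0 to 1 with 1 liver left out. Over the 3 ages, 5 as reported, it was 9 with edgeR, 1 with filtered edgeR, 3 with TMM factors, 9 with total-count factors, 3 within replicates 1 and 2 and 8 within replicates 3 and 4, and 2 to 11 with 1 liver left out. The cause of these shifts was not tested.

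Over all genes, DESeq2 called 484, 727 and 117 in the 3 pairs, edgeR 880, 1154 and 446 and filtered edgeR 172, 280 and 13. The replicate numbers did not pair the livers: same-numbered livers of different ages had correlations of their deviations from -0.303 to 0.159 over 12 pairs, and 4 of 24 correlated best with their own number. With the replicate block, 655, 385 and 426 genes were called, 3 of the 66 pathway genes over the 3 ages, and Pcyt1a was not called in middle-aged against young livers (log2 change 0.44). Over the 3 ages Pcyt1a was not called with the block either. The block added Lpin1 in both comparisons with middle-aged livers and changed no other call of the 10 genes. At 8124312 to 10527159 counts per library, each of the 10 genes had 10 counts or more in every liver.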
